A study of Schizosaccharomyces pombe with 8 samples.

Results

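This report describes 1 of 8 microarrays, that of fission yeast M cells after 2 h with P-factor. The rule that chose it used its sample label and no measured ratio, but earlier results of these data were known at the time. The M cells were h- Δmat2,3::LEU2 cyr1::ura4+ ura4-D18 and were inactivated in sxa2, which the label spells sax2-. They grew in MSL medium at 30 °C and received 1 μg/ml of P-factor, and their RNA was compared with that of the same cells at 0 h, before pheromone. The P-factor arrays of 4 and 6 h used the same 0 h RNA, so the values of the 3 arrays are given side by side and are not independent of one another. P cells of genotype h+ Δmat2::LEU2 cyr1::ura4+ ura4-D18 with M-factor at 2, 4 and 6 h and the untreated M over P cell array serve only for comparison. Both strains carry the cyr1 disruption, and the M strain carries the sxa2 defect with and without pheromone. The P-factor and the M-factor courses come from separate cultures, the time points of a course from 1 culture, and 1 array for each comparison was analysed here.

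Fission yeast has the mating types P and M, and each secretes a peptide pheromone that the other reads. P-factor binds the receptor Mam2 on M cells, the signal passes through the Gα protein Gpa1, Ras1 and a MAP kinase cascade of Byr2, Byr1 and Spk1, and the HMG-box transcription factor Ste11 then activates genes for mating and meiosis. Cells normally answer only when starved of nitrogen. Loss of Cyr1, the adenylate cyclase that makes cAMP, lifts that requirement, and loss of Sxa2, the carboxypeptidase that degrades P-factor, keeps the pheromone present. Ste11 binds a short sequence called the TR box, or close relatives of it.

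The sequences printed here are upstream Ste11 sites listed by the study, and they are shown because the members described first carry them. The study picked these genes on the arrays described here, so a site is a description and supports nothing about its gene. Each is written 5′ to 3′ with the 10 bases of the site in capitals. The first set of lines shows genes whose site has the exact TR box letters, those of the fus1 line or, on the other strand, those of the rgs1 line, which 31 of the 154 listed sites have. The share of all promoters that hold them was not computed, since no promoter sequences were used here.
dni2: aaaaTTTCTTTGTTtcaa
dni1: cgggAACAAAGAAAacac
fus1: accgAACAAAGAAAgtta
dhc1: tagaTTTCTTTGTTccgc
rgs1: atgaTTTCTTTGTTtaaa
rep1: gtaaAACAAAGAAAggat
spk1: aaacTTTCTTTGTTattg
ste11: gttgTTTCTTTGTTgcaa
mei2: ctctTTTCTTTGTTtgtt
hmg1: agagAACAAAGAAActta
Of the 6 M cell markers only mam4 has the exact letters among the listed sites. In its alignment of M-specific promoters the study gives other sites for mam3 and mam1 than those printed here. The sites of the receptor gene, the P-factor peptidase gene, the adhesin gene and the M-factor transporter gene depart from the exact letters and are shown with their capitals, followed by that of mam4.
mam2: tctaAACAAAGAGGaatt
sxa2: tgggTGTCTTTGTTgccc
mam3: atgaAACAAAGGAAgttg
mam1: ttagTTCCTTTGTTatat
mam4: tgatTTTCTTTGTTttac
At 2 h all 31 genes with an exact site had a value, and 25 stood at least 2-fold up, with a median log2 ratio of 1.64 and a range of -0.12 to 5.03. Of the other 123 listed genes 118 had a value and 91 stood at least 2-fold up, with a median of 1.41. Over all genes the share was 5.45%, but the lists were made from these ratios, so nothing is read from the difference.

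The array carries PCR products, nearly every gene as 2 spots, and values are log2 ratios of treated over untreated RNA, averaged over the spots of a gene. An SD beside a value is that between the 2 spots of a gene on this 1 array, so it shows the error of printing and hybridisation but not that between cultures. No test across replicates was possible for the array alone, and genes are described by whether they stood at least 2-fold up or down. Of 4752 genes 4129 had a value. At 2 h 225 genes stood at least 2-fold up, which is 5.45% of those measured, and 202 stood at least 2-fold down, which is 4.89%. The median of all genes was -0.02, with quartiles of -0.40 and 0.36 and a range of -2.72 to 8.41. At 1.5-fold the counts were 599 up (14.5%) and 680 down (16.5%), and at 3-fold 78 up (1.89%) and 22 down (0.533%). The last gene inside the limit was SPAC31G5.21 and the first outside it mal3, both at 1.00, and on the lower side these were pgt1 and clp1, both at -1.0. Where at least 2 spots were measured, every spot lay past 2-fold in 97 of 146 genes up (66.4%) and in 60 of 101 genes down (59.4%), and in 0 of them did a spot have the other sign.

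The M cell markers were at least 2-fold up in 6 of 6 cases, with a median log2 ratio of 3.15, in cells labelled as M cells. The study found mam3 and cwp1 to be M-specific with arrays of this series, and then also by real-time PCR on RNA of cyr1+ cells. The count is therefore partly set by how the list was made and is a description only. mam2, the P-factor receptor gene, gave spots of 3.01 and 4.02, a mean of 3.51 (SD 0.71). It stood at 5.33 at 4 h and 4.79 at 6 h, and at -0.25 in P cells with M-factor at 2 h. mam3, an adhesin gene of mating cells, gave spots of 4.27 and 5.97, a mean of 5.12 (SD 1.20). The transporter gene of M-factor, mam1, gave 2.63 and 2.95, a mean of 2.79 (SD 0.23). cwp1, which encodes a prenyltransferase subunit, gave 2.06 and 2.19, a mean of 2.12 (SD 0.09). mam4, which encodes the methyltransferase of M-factor, gave 1.40 and 1.88, a mean of 1.64 (SD 0.34). Its ratio and those of the other markers were above 2-fold in both spots, and at 2 h only mam4 of these 6 genes also stood past 2-fold in P cells with M-factor, at 1.51. With M-factor 2 of the 6 were past 2-fold at 4 h and 3 at 6 h. Before pheromone, mam2 stood at 1.65 and mam1 at 2.15 in M over P cells, while mam4 at 0.92, mam3 at 0.47, sxa2 at 0.23 and cwp1 at -0.06 were inside 2-fold. The M-factor precursor genes mfm1, mfm2 and mfm3 and the mating-type gene mat1-Mc are not among the named spots.

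sxa2 gave spots of 11.55 and 5.18, a mean of 8.37 (SD 4.50), and stood at 9.36 at 4 h and 6.27 at 6 h. The study calls sxa2 inactivated in this strain and does not describe the change. The defect is shared by both channels of the array. The ratio therefore shows signal of the probed sequence rising with P-factor, and not whether the product works. Of the P cell markers 0 of 4 stood past 2-fold at 2 h. map2, the P-factor precursor gene, had 1 spot at -0.18, and map3, the M-factor receptor gene, had spots of -0.45 and -0.17. map4, an adhesin gene of P cells, and SPAC1565.03 had 1 spot each, at 0.66 and 0.52. At 4 h of P-factor map4 stood past 2-fold at 1.26, with SPAC1565.03 at 0.98, map2 at 0.92 and map3 at 0.10. At 6 h 0 of the 4 were past 2-fold. In P cells with M-factor at 2 h 3 of the 4 were at least 2-fold up. There SPAC1565.03 stood at 5.47, map2 at 3.12 and map4 at 1.47, while map3 stood at -0.35. Before pheromone map2 stood at -2.94 and map3 at -1.23 in M over P cells, while SPAC1565.03 at -0.59 and map4 at 0.07 were inside 2-fold.

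**Figure D1:**
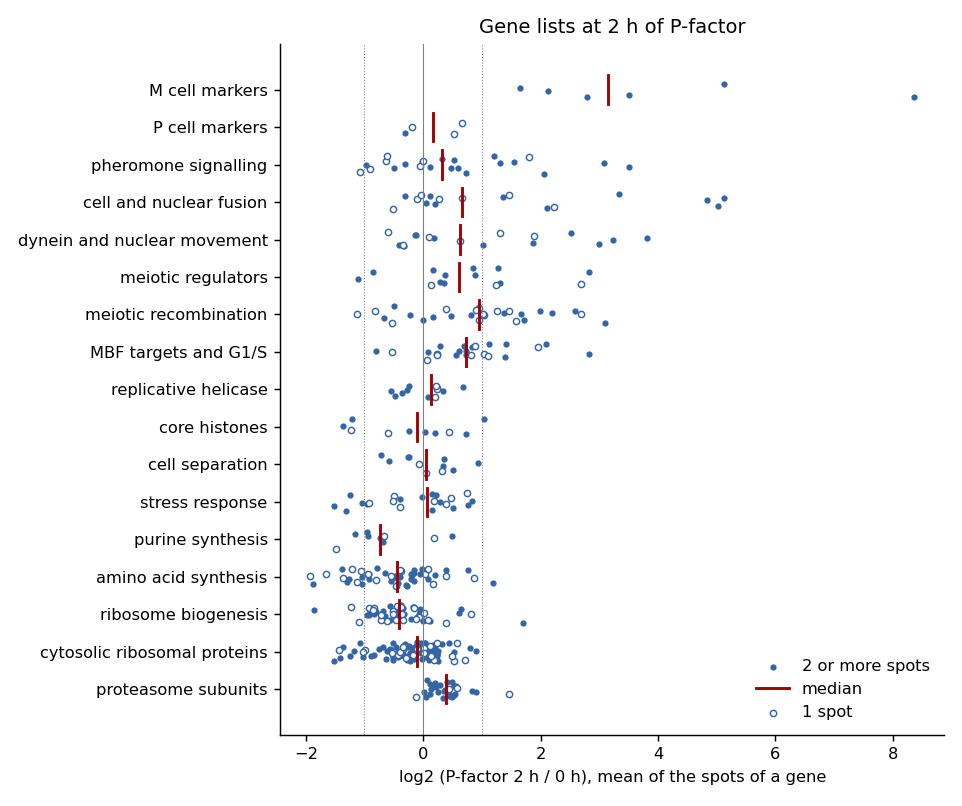
Log2 ratio (2 h of P-factor over 0 h, horizontal axis) of every measured member of 17 gene lists, 1 point a gene (open where it rests on 1 spot), with the list medians as red bars and dotted lines at 2-fold. The M cell markers lie all to the right of the 2-fold line, and the cell separation genes all between the lines.

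The counts in this and the following lists are read beside the 5.45% of all genes up and the 4.89% down. The lists were written with earlier results of these data known. Some genes are counted in more than 1 list, such as mam3, mek1 and rep1. The signalling list held 23 genes, all measured, of which 7 stood at least 2-fold up and 1 down, with a median of 0.32. rgs1, whose product turns off the Gα protein, had spots of 3.17 and 3.0, a mean of 3.08 (SD 0.12), and stood at 3.94 and 3.24 at 4 and 6 h. spk1, the MAP kinase gene, had spots of 2.13 and 1.98, a mean of 2.05 (SD 0.11). Upstream in the cascade the values were smaller. byr1, the MAP kinase kinase gene, stood at 0.60 with spots of 0.66 and 0.54, and byr2, the gene of the kinase above it, had 1 spot at -0.63. ste4, whose product binds Byr2, stood at 1.56 with spots of 1.55 and 1.56. ste11 gave 1.32 in both spots, and stood at 1.95 at 4 h and 1.91 at 6 h. Ras1 has an activating exchange factor, Ste6, and an inhibiting GTPase activator, Gap1. The inhibitor gene gap1 stood at 1.21 with spots of 0.94 and 1.49, ras1 stood at 0.53, and ste6 had 1 spot at -0.91. ste7, which encodes an arrestin-like protein, had 1 spot at 1.81. gpa1 had 1 spot at -0.05 at 2 h and stood at 0.66 at 4 h and 1.14 at 6 h. The member at least 2-fold down was sty1, the gene of the stress MAP kinase, with 1 spot at -1.08. So the genes of the receptor, the MAP kinase, Ste11, Ste4, Ste7 and the negative regulators Rgs1 and Gap1 were past 2-fold at 2 h. For gap1 only 1 spot was past 2-fold, and ste7 rests on 1 spot. The genes of the Gα protein, Ras1 and both upstream kinases were inside 2-fold. In the list of pheromone production and removal, 6 of 8 measured genes stood at least 2-fold up and 0 down. Besides M cell markers these were isp6, a vacuolar protease gene, at 1.16 with spots of 2.00 and 0.32, and cpp1, a farnesyltransferase subunit gene, at 1.10 with spots of 1.30 and 0.90. For isp6 only 1 spot was past 2-fold at 2 h. sxa1, the gene of an aspartyl protease, stood at 0.84.

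Genes for cell and nuclear fusion were at least 2-fold up in 8 of 17 measured members and down in 0, with a median of 0.66. The paralogous membrane protein genes dni1 and dni2, which act in fusion of mating cells, were among the highest ratios of the array. dni2 gave spots of 4.81 and 5.24, a mean of 5.03 (SD 0.30), and dni1 gave 3.72 and 5.94, a mean of 4.83 (SD 1.56). fus1, the gene of the formin that organises actin at the fusion site, gave 3.34 in both spots, and stood at 3.95 and 3.23 later. prm1, a gene of plasma membrane fusion, gave 1.57 and 2.65, a mean of 2.11 (SD 0.76). tht1, whose product fuses nuclear envelopes in karyogamy, had 1 spot at 2.23. mok13, an α-glucan synthase gene, had 1 spot at 1.46, and bgl2, of a glucanase family, gave 1.44 and 1.29. tht2, another karyogamy gene, stood at -0.31 at 2 h, 1.63 at 4 h and 0.57 at 6 h. chs1, a chitin synthase gene of this list, had no value at 2 h.

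Genes of dynein and nuclear movement, which pull the nucleus to and fro after mating, were at least 2-fold up in 8 of 17 measured members and down in 0, with a median of 0.63. dhc1, the dynein heavy chain gene, gave spots of 2.82 and 3.65, a mean of 3.23 (SD 0.59), and stood at 6.61 at 4 h. num1, whose product anchors dynein at the cortex, gave 3.55 and 4.07, a mean of 3.81 (SD 0.37). arp1, a dynactin subunit gene, gave 2.87 and 3.12, a mean of 3.0 (SD 0.18). alp31, a tubulin cofactor gene, gave 2.29 and 2.76, a mean of 2.52 (SD 0.33). dic1, the intermediate chain gene, gave 2.04 and 1.71. So dhc1, num1, arp1, alp31 and dic1 were at least 2-fold up in both spots. ssm4, the gene of the large dynactin subunit, had 1 spot at 1.30. bqt1, which ties telomeres to the spindle pole body, gave 0.64 and 1.39, so only 1 spot was past 2-fold. kms1, whose product links chromosomes to the dynein of the cytoplasm, stood at 0.63, and dlc1, a dynein light chain gene, at -0.32. dlc2, sad1 and mcp6 had no value at 2 h, and sad1, a gene of the same link, stood at 1.65 at 4 h and 0.59 at 6 h.

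Regulators of meiosis were at least 2-fold up in 5 of 14 measured members and down in 1. rep1, a transcription factor gene for premeiotic DNA synthesis, gave 2.98 and 2.68, a mean of 2.83 (SD 0.22). mek1, a checkpoint kinase gene of meiosis, had 1 spot at 2.68. mei2, the gene of the RNA-binding protein that turns on meiosis, gave 1.84 and 0.71, a mean of 1.28 (SD 0.80), and stood at 2.65 and 2.47 at 4 and 6 h. mei4, the forkhead transcription factor gene of mid meiosis, gave 1.27 and 0.50, a mean of 0.89, against 2.26 and 1.33 later. mei3, whose product inhibits the kinase Pat1, gave 0.38 and 0.36 at 2 h, against 1.33 and 1.17. In all 3 mei genes the 2 h value was the lowest of the course, and the difference was not past the limma test given further on. pat1 stood at 0.85. mmi1, which removes meiotic transcripts in growing cells, stood at -0.85, and atf21 at -1.11. rep2, red1 and moa1 had no value.

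Meiotic recombination genes were at least 2-fold up in 13 of 27 measured members and down in 1, with a median of 0.95. rec25, a linear element gene, gave 2.82 and 3.36, a mean of 3.09 (SD 0.38). rec27, of the same structures, gave 2.22 and 1.75, a mean of 1.98 (SD 0.33), and stood at 4.02 at 4 h. dmc1, the meiotic recombinase gene, gave 1.96 and 2.43, a mean of 2.20 (SD 0.34), and rti1, a Rad52 homologue gene, gave 2.77 and 2.41. rec12, the gene of the protein that makes the double-strand breaks, stood at 1.46, and hop1, an axis gene, at 1.37. rec10, also an axis gene, had 1 spot at 0.95 at 2 h and stood at 2.33 and 2.94 later. rec8, the meiotic cohesin gene, stood at -0.22, rad52 at -0.83, and rec15 had 1 spot at -1.13. rec6 and mug20 had no value. 13 of these 27 genes had 1 spot. Among genes named for being upregulated in meiosis, 13 of 72 mug genes stood at least 2-fold up and 2 down, and 4 of 14 meu genes up and 0 down. mug8 gave 2.83 in both spots, and meu26 had 1 spot at 3.28.

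Genes of the MBF transcription factor and the G1/S transition were at least 2-fold up in 8 of 23 measured members and down in 0. Above 0 stood 21 of the 23, beside 2007 of all 4129 genes. cig2, the G1/S cyclin gene, gave 1.76 and 2.43, a mean of 2.10 (SD 0.47). mik1, the gene of a kinase that inhibits Cdc2, had 1 spot at 1.96. res2, an MBF subunit gene, gave 1.44 and 1.38, and cdc10, another, stood at 1.04. cdc22, the ribonucleotide reductase gene, gave 0.84 and 1.41, a mean of 1.12 (SD 0.41). The 2 members below 0 included suc22, the small reductase subunit gene, at -0.80. cdc18, the replication licensing gene, stood near 0, at 0.09 with spots of 0.31 and -0.14. Of the 12 measured genes of the replicative helicase 0 were past 2-fold. Core histone genes, whose near-identical copies these probes may not tell apart, were at least 2-fold up in 1 of 10 cases and down in 3. hta2 stood at -1.21, hhf1 at -1.24 and hhf3 at -1.37, while pht1, the gene of a histone variant, stood at 1.03.

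The highest ratios outside these lists were of mixed kinds. bdf1, a bromodomain protein gene, had the highest mean of the array, 8.41, from spots of 4.51 and 12.31 (SD 5.52), and stood at 9.65 and 5.60 later and 5.99 with M-factor at 2 h. sti1, a co-chaperone gene of Hsp90, gave 4.12 and 6.73, a mean of 5.42 (SD 1.84), and stood at 3.57 and 3.50 later. In its list of 13 chaperone genes bip1 was also at least 2-fold up, at 1.13, and hsp10 at least 2-fold down, at -1.31. hsp90 itself stood at 0.99, just inside 2-fold. fis1, a mitochondrial fission gene, gave 3.19 and 4.04, a mean of 3.62 (SD 0.60). SPBC354.04 gave 2.90 and 4.19, a mean of 3.54 (SD 0.92). In bdf1, sti1, fis1 and SPBC354.04 both spots were past 2-fold.

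**Figure D2:**
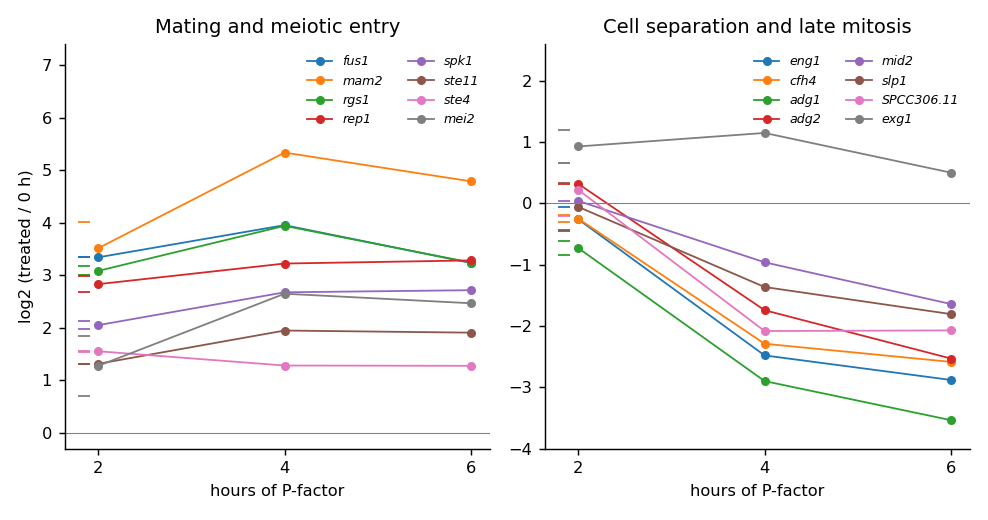
Log2 ratio over 0 h (vertical axis) of 8 mating and meiotic genes (left) and 8 genes of cell separation and late mitosis (right) at 2, 4 and 6 h of P-factor in M cells, with gene means as points and the 2 h spots as ticks. fus1 stood at 3.34, 3.95 and 3.23, while eng1 stood at -0.26, -2.48 and -2.88.

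Genes at least 2-fold down were found in several further lists, which are read here against the 4.89% of all genes that were down. Amino acid synthesis genes were down in 12 of 48 measured members and up in 1, with a median of -0.44. lys12, of lysine synthesis, gave -1.95 and -1.82, a mean of -1.88 (SD 0.09), and stood at -2.60 and -2.06 later. arg1 had 1 spot at -1.92. arg5, of arginine synthesis, stood at -1.65, ilv1, of isoleucine and valine synthesis, at -1.38, and trp3, of tryptophan synthesis, at 1.20, the single member at least 2-fold up. Purine synthesis genes were down in 2 of 9, ade1 with 1 spot at -1.49 and ade3 at -1.17, and the median was -0.74. At 4 h 5 and at 6 h 4 of the 9 were down. Of 53 ribosome biogenesis genes 3 were down, or 5.66%, near the share of all genes, and 1 up, with a median of -0.41. gar1, of the small nucleolar particles that modify ribosomal RNA, gave -2.30 and -1.41, a mean of -1.85 (SD 0.63), while rrb1 stood at 1.70. Of 114 cytosolic ribosomal protein genes 9 were down and 0 up, with a median of -0.11, and probes of near-identical copies may not tell these apart. Stress response genes were down in 4 of 22 cases and up in 0. zym1, the metallothionein gene, gave -1.98 and -1.06, and ctt1, the catalase gene, gave -0.93 and -1.70. ght2, a hexose transporter gene, gave -1.93 and -1.79, a mean of -1.86 (SD 0.10). Among 12 measured genes of the nitrogen response 2 were up and 0 down.

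The lowest ratios with both spots past 2-fold included genes that were higher in M than in P cells before pheromone. wwm2 gave -2.14 and -3.30, a mean of -2.72 (SD 0.82), the lowest of the array, and stood at 2.14 in untreated M over P cells. SPAC4H3.08 gave -2.50 and -2.09, a mean of -2.30, and stood at 2.49 there. SPBC1289.14 gave -2.37 and -2.07, a mean of -2.22, and stood at 2.78. Of the 60 genes with every spot down, 5 stood past 2-fold up on that array, and the median of the 60 was 0.02. Of the 97 genes with every spot up 4 did, and of all genes 33, or 0.694%. The M over P array and the P-factor arrays both used untreated M cells, in the numerator of the first and the denominator of the others, so these values are not independent. Of 30 measured proteasome subunit genes 29 stood above 0 at 2 h, beside 2007 of all 4129 genes. The median of the 30 was 0.38, and 1 was at least 2-fold up, pre1 at 1.46. The list medians were 0.16 at 4 h and 0.06 at 6 h of P-factor. With M-factor they were 0.55 at 2 h, 0.61 at 4 h and 0.22 at 6 h.

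The question of what separates the early from the later response was put to the 3 P-factor arrays. Of the 97 genes with every spot past 2-fold up at 2 h, 82 were also past 2-fold at 4 h, where 7.22% of all genes were, and 85 at 6 h, where 5.7% were, and their medians were 1.81, 2.14 and 1.95. Of the 60 down, 58 were past 2-fold at 4 h (7.36% of all genes) and 45 at 6 h (5.2%), with medians of -1.42, -1.70 and -1.39. The shared 0 h RNA ties these counts to one another. The medians of all 3 arrays also fall below 0 toward the end of the spot numbering, as given further on. No count in this paragraph was adjusted for that. In the other direction, 44 genes stood within 0.5 of 0 on the log2 scale at 2 h and past 2-fold the same way at both later times, 20 of them up and 24 down, and 20 of the 44 had 1 spot at 2 h.

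Some cell separation genes lay inside 2-fold at 2 h and at least 2-fold down later. At 2 h 0 of 11 were past 2-fold, at 4 h 4 were down and 1 up, and at 6 h 5 were down and 0 up, with medians of 0.04, -0.34 and -0.08. exg1, a glucanase gene, stood at 0.93, 1.15 and 0.50, and agn2 at -0.59, -0.34 and -0.08. eng1, the glucanase gene of daughter cell separation, gave -0.45 and -0.06 at 2 h, -2.57 and -2.38 at 4 h, and -2.94 and -2.82 at 6 h. cfh4, a chitin synthase regulator gene, gave -0.31 and -0.18 at 2 h, and stood at -2.29 and -2.58 later. adg1, a gene of the same cell separation program, gave -0.84 and -0.61, and stood at -2.90 and -3.53. Neither of its spots reached 2-fold at 2 h. adg2 had 1 spot at 0.32 and then stood at -1.74 and -2.53. slp1, the gene of an activator of the anaphase-promoting complex, stood at -0.05, -1.36 and -1.80. With M-factor at 2 h eng1 stood at -0.44, cfh4 at -0.31 and adg1 at -0.64, and eng1 stood at -4.38 at 4 h. Of the 11 genes 2 were at least 2-fold up with M-factor at 2 h, among them exg1 at 1.40, and 1 was down, agn2 at -1.80. The sterol synthesis list held 18 measured genes, with 2 past 2-fold up at 2 h, 4 at 4 h and 2 at 6 h, with medians of -0.15, -0.02 and 0.12. The values of a pair of sterol genes, named after they were seen, were higher later. hmg1, the HMG-CoA reductase gene, whose exact site is printed above, gave 0.04 and -0.28 at 2 h and stood at 2.50 and 2.77 later, and erg6, a sterol methyltransferase gene, had 1 spot at -0.30 and stood at 1.88 and 3.83.

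A limma fit over the 6 arrays of both courses compared 2 h of P-factor with the mean of 4 and 6 h in 4094 genes. The spread was taken from the differences between 4 and 6 h, with 2 residual degrees of freedom, so the 2 h array was assumed to vary like these. 1 gene passed at an adjusted p of 0.05, which is 0.0244% of those tested, and 287 had an unadjusted p under 0.05. The gene was chr4, a chitin synthase regulator gene, higher at 2 h by 4.87 (SE 0.35, adjusted p = 0.0108). Its mean of 5.40 came from spots of 9.55 and 1.24, and it stood at 0.64 and 0.41 later, so the call rests on 1 spot. eng1 was higher at 2 h by 2.42 (SE 0.30), cfh4 by 2.19 (SE 0.29) and SPCC306.11 by 2.30 (SE 0.28), each with an adjusted p of 0.108 by limma. adg1 and slp1 had an adjusted p of 0.565 in the same fit. The count depends on the arrays that set the spread, as given for each setting in the closing sections. With the P-factor arrays alone 1 residual degree of freedom was left, and the fit gave every gene the same spread.

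This array had the fewest values of the series. Of 9522 spots with 1 gene symbol 2923 (30.7%) had none, against 2.46% to 8.45% on the other 5 arrays of the courses. The spots of a gene lie 5760 spot numbers apart, a first-listed and a second-listed spot. Of the first-listed spots 2201 (46.2%) lacked a value, of the second-listed 722 (15.2%). Over 16 runs of 360 spot numbers in each set, the share without a value ran from 19.4% to 94.4% among first-listed spots (median 43.6%) and from 3.82% to 34.6% among second-listed (median 14.2%). The highest share was in run 10. On the 4 h array the medians over runs were 8.66% and 6.08%. Missing values were therefore unequal by spot number within this array. The sources used here do not state how spot numbers map to places on the slide.

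**Figure D3:**
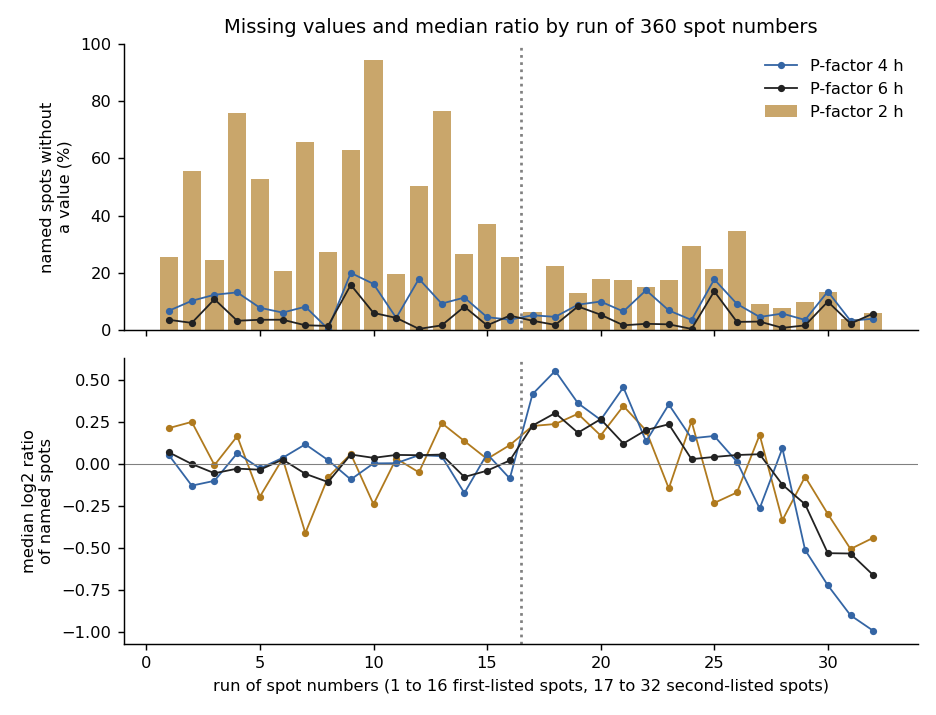
Share of named spots without a value (upper panel, percent) and median log2 ratio of named spots (lower panel) by run of 360 spot numbers, runs 1 to 16 with first-listed and 17 to 32 with second-listed spots, on the 3 P-factor arrays. At 2 h (bars) the missing share peaks at 94.4% in run 10, and all 3 arrays fall below 0 in the last runs.

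By gene, 2465 (51.9%) had a value from at least 2 spots, 1664 from 1 spot and 623 (13.1%) from none. At 4761 pairs of spots both were missing in 626 (13.1%), while the product of the shares of first- and second-listed spots is 7.01%. Of the 623 genes without a value 409 (65.7%) had one at 4 h, and 26 of these were then at least 2-fold up and 22 down. At 6 h 478 (76.7%) had one, with 23 up and 17 down. Among genes missing at 2 h the share at least 2-fold up was 6.36% at 4 h and 4.81% at 6 h, beside 7.31% and 5.80% of the rest, so the genes without an early value included some past 2-fold later. 393 of the 623 had values on the other 5 arrays of the courses, and 75 on none of the 6. The share without a value was 13.2% on chromosome I, 13.3% on II and 12.7% on III. The median gene length was 1712 bases for genes without a value, 1896 for those with 1 spot and 1775 for those with at least 2.

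By class, the nitrogen response lacked 6 of 18 genes (33.3%), beside 13.1% of all genes. These were isp4 and isp5, membrane transporter genes turned on by nitrogen starvation, fnx2, the ammonium transporter gene amt1, and the amino acid permease genes put4 and cat1. The meu genes lacked 4 of 18 (22.2%), the mug genes 19 of 91 (20.9%) and the glucan synthases 2 of 9 (22.2%), mok11 and mok12. At 4 h 78 of 91 mug, 17 of 18 meu and 16 of 18 nitrogen response genes had a value, beside 4513 of 4752. At 6 h 86, 18 and 17 had one, beside 4599. Genes known only by systematic names lacked 126 of 761 (16.6%), and their measured members were at least 2-fold up in 33 and down in 46 of 635. Meiotic regulators lacked 3 of 17 (17.6%) and the cAMP and glucose genes 3 of 19 (15.8%), git11, cyr1 and cgs2. cyr1 is the gene disrupted in both strains, and its part in the missing value was not tested. Classes with fewer gaps included cytosolic ribosomal proteins, which lacked 9 of 123 (7.32%), amino acid synthesis, 3 of 51 (5.88%), stress response, 1 of 23 (4.35%), and RNA polymerase subunits, 1 of 31 (3.23%). Signalling, pheromone production and removal, both marker lists, core histones, cell separation, hexose transport, the chaperones, purine synthesis, the translation factors and the wtf genes lacked 0. These are counts of few genes in most lists, and the position on the numbering differs between genes as well, whose part in the shares was not tested.

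The spots of a gene were close together for most genes. Over 2464 pairs the first- and second-listed spot correlated with a Pearson r of 0.74 and a Spearman rho of 0.67 across genes, which are not independent replicates and share the array. The median SD between spots was 0.23 on the log2 scale, with 0.40 at the upper quartile and 0.69 at the 95th percentile. 107 pairs (4.34%) lay more than 2-fold apart, beside 10.8% at 4 h, 2.31% at 6 h and 11.5% to 18.2% on the M-factor arrays. So where both spots were measured, their agreement on this array was between that of the later P-factor arrays. The sign of both spots was the same in 73.6% of all pairs, in 84.1% where the larger was at least 0.5 in size, in 96.8% where it was at least 1 and in 98.5% where it was at least 2. The median SD was 0.22 in genes with a mean under 0.5 in size and 0.82 in the 16 genes at 3 or more.

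**Figure D4:**
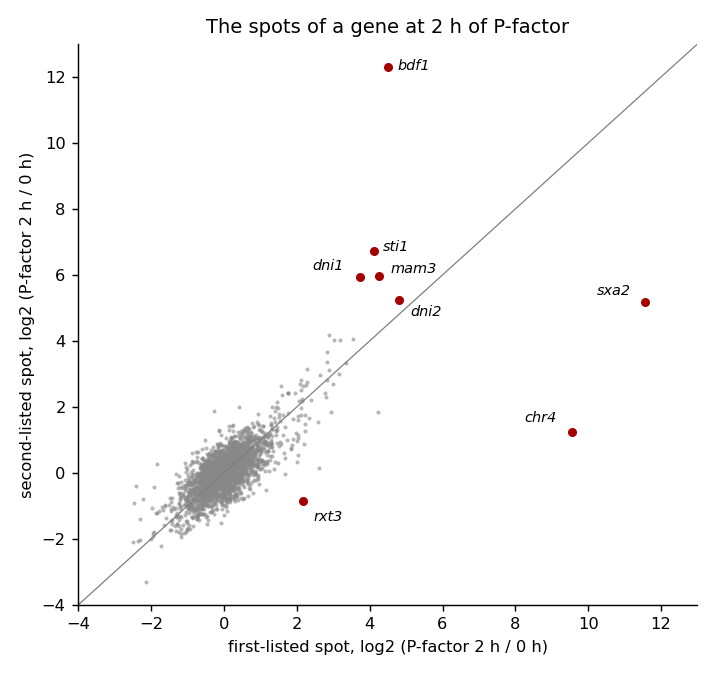
First-listed spot (horizontal axis) against second-listed spot (vertical axis) of each gene at 2 h of P-factor, both as log2 ratios, with the line of equality. Most of the 2464 pairs lie along the line (r = 0.74), and bdf1, sxa2 and chr4 lie far off it.

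The largest ratios agreed least. 3 spots lay past 9 on the log2 scale at 2 h, 4 at 4 h and 0 on the other arrays. They were a spot of sxa2 at 11.55, whose partner gave 5.18, a spot of bdf1 at 12.31, whose partner gave 4.51, and a spot of chr4 at 9.55, whose partner gave 1.24. For sxa2 and bdf1 the lower spot was itself far past 2-fold, so the direction does not hang on the extreme spot but the size does. For chr4 the lower spot was just past 2-fold. The next SD was that of rxt3, with spots of 2.15 and -0.87, a mean inside 2-fold and opposite signs. Among named genes, fus1, ste11, mug8 and SPBC8E4.03 had spots that were equal to 2 decimals.

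Genes read from 1 spot differed from the rest. Of the 1664 such genes 79 stood at least 2-fold up and 101 down, with a median of -0.12, and of the 2465 with at least 2 spots 146 were up and 101 down, with a median of 0.04. The deposited values moved with spot number: the median over a run was between -0.41 and 0.25 for first-listed and between -0.50 and 0.35 for second-listed spots. The second-listed medians ran from -0.99 to 0.56 at 4 h and from -0.66 to 0.30 at 6 h. In the last 8 runs of the numbering 882 genes with 1 spot had a median of -0.29, with 28 up and 82 down. In the other runs 782 had a median of 0.09, with 51 up and 19 down. Centring each run on its own median, an alternative chosen after the data were seen, gave 197 genes up and 168 down, of which 173 and 127 were among those counted before. Among the lists named above it gave 7 up and 2 down in signalling, 8 and 0 in fusion, 7 and 0 in dynein and nuclear movement, 14 and 0 in recombination, 7 and 0 in MBF and G1/S and 1 and 11 in amino acid synthesis. The direction of these lists was the same with the runs centred.

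The M-factor array of 2 h shares no reference RNA with this array, and its treated RNA carried the other dye. Over 4122 genes on both, the ratios correlated with a Pearson r of 0.66 and a Spearman rho of 0.63 across genes, which share the array design. Of 223 genes at least 2-fold up with P-factor, 154 (69.1%) were also up with M-factor, which is 38.9% of the 396 up there. Of 200 down, 112 (56.0%) were also down, which is 25.4% of the 441 down there. At least 2-fold up the M-factor array had 9.56% of its genes and down 10.8%. 0 genes were up with P-factor and down with M-factor. Among the shared genes, dni2 stood at 5.03 with P-factor and 6.07 with M-factor, rep1 at 2.83 and 2.89, and rec25 at 3.09 and 3.37. Up with P-factor and inside 2-fold with M-factor were 5 of the 6 M cell markers, among them sxa2 at 8.37 against -0.23 with M-factor and mam3 at 5.12 against 0.97. That list was partly drawn from arrays of this series, so the count is a description. The ribosome biogenesis list stood lower with M-factor, with 22 of 55 at least 2-fold down there and a median of -0.75, beside 3 of 53 and -0.41 with P-factor. The difference between the arrays was not tested, since each is single.

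**Figure D5:**
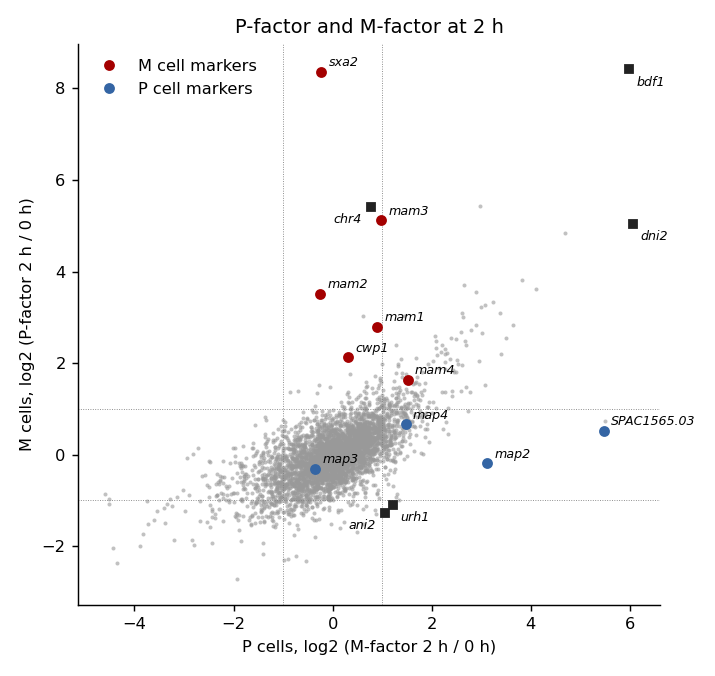
Log2 ratio at 2 h of M-factor in P cells (horizontal axis) against that at 2 h of P-factor in M cells (vertical axis) for 4122 genes, with M and P cell markers coloured, 5 further named genes as squares and dotted lines at 2-fold. bdf1 and dni2 lie high on both axes, and sxa2, mam2 and mam3 lie high on the vertical axis alone.

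Some genes high at 2 h were neighbours on a chromosome. In annotation order, the neighbours of the genes at least 2-fold up, where measured, were up in 13.2% of 364 cases, beside 5.35% of 6802 over the neighbours of all genes, and 5.22% of them were down. For genes down the share down among their neighbours was 5.23%, beside 4.50%. Neighbours seldom lay in the same run of spot numbers (0.265% of them), and with runs centred the share up was 11.3% beside 4.68%. 24 adjacent pairs were both up, and each is counted from both of its genes among the 364 cases. A run of 4 consecutive genes on chromosome I held rrg8 at 2.08, dni1 at 4.83, hem4 at 2.17 with spots of 2.14 and 2.19, and spk1 at 2.05. On chromosome III bdf1 lay beside utp502, a ribosome biogenesis gene, whose spots gave 2.12 and 2.52. The probes are double-stranded PCR products, so signal of overlapping or opposite transcripts cannot be told apart from that of the named gene. With strand-specific RT-PCR the study traced the pheromone-induced signal of SPAC3F10.09 in P cells to the opposite strand, that of its neighbour map3. Whether this bears on the neighbours given here was not tested.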

How the data were processed

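RNA of M cells after 2 h of P-factor was compared with 0 h RNA on 1 of 8 2-channel arrays, treated RNA in Cy3. The authors quantified spots with Imagene, normalised by lowess and deposited natural log ratios for this array, the P-factor 4 and 6 h, M-factor 6 h and both M over P arrays, and log2 ratios for M-factor 2 and 4 h. The bases were inferred. Read as natural log, P-factor values gave the study's listed mean fold changes within 2% or 0.05 for 121 of 155 matched genes. With the 2 h array alone read as log2 this held for 12, and with all P-factor arrays read so for 3. These counts cover the P-factor arrays only. The M-factor values given here rest on the bases inferred for those arrays, for which no such count is given. The files used hold no intensities, so how far spots lay above background is not known, and the number of arrays limits precision.

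Values were converted to log2 and spots with 1 symbol (9522 of 11520) averaged by gene. Symbols were updated through RefSeq gene numbers (9474 spots), synonyms (44) or kept (4). Contrasts were tested with limma 3.58.1 in R 4.3.3, Benjamini-Hochberg adjusted over 4094 genes, after checks on simulated data. Python 3.11.15, numpy 2.4.6, pandas 2.3.3 and matplotlib 3.10.9 did the rest. The labels give 1 array a group, and further replicates were not analysed here.

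The array, lists, tests and named genes were chosen with earlier results of these data known. The naming rule took the 15 highest and 15 lowest ratios with every spot past 2-fold, the 4 largest ratios of each list in size, all markers, list members without a value, the leading limma differences and the 5 largest spot SDs. Other genes, such as late genes, neighbours and list members near 0, were named after their values were seen. The planned motif search over promoters was not run. Alternatives changed the log base, centring, spots, threshold, fit and arrays.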

Additional observations from a re-analysis of the deposited data

Results flagged for a closer look

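Genes at least 2-fold down with P-factor and up with M-factor at 2 h numbered 2, and the differences were not tested, since each array is single. ani2 had 1 spot at -1.28 with P-factor and spots of 4.04 and -1.92 with M-factor, a mean of 1.06, so P-factor minus M-factor was -2.34 and the M-factor spots had opposite signs. urh1 had 1 spot on each array, at -1.09 and 1.22, a difference of -2.31. With P-factor at 4 and 6 h ani2 stood at -1.25 and -1.0 and urh1 at -0.96 and -1.08. Among spots without a single gene symbol, 5 pairs had both spots at least 2-fold up at 2 h. These spots were outside every comparison.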

How the results depend on the processing

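The 225 genes up and 202 down became 95 and 43 with the values read as log2, 146 and 101 with at least 2 spots required, 97 and 60 with every spot past the limit, 599 and 680 at 1.5-fold, and 78 and 22 at 3-fold. With the first-listed spot alone they were 174 and 118, over 2556 genes. Centring on the array median gave 232 and 185, and, chosen after the data were seen, the second-listed spot alone gave 243 and 232 and centring within runs 197 and 168. Counting genes with any spot lacking, 2292 in place of 623 were incomplete. The median spot SD of 0.23 was 0.16 read as log2. Centring on the array or within runs, the first-listed spot alone and reading as log2 turned the sign of 0 named genes past 2-fold. At 1.5-fold the genes down outnumbered those up, and some list medians near 0 changed sign with runs centred, such as stress response from 0.06 to -0.03 and the replicative helicase from 0.13 to -0.07. Of 102 named genes past 2-fold 0 lost this with array centring, 6 with centring within runs and 37 read as log2, and 3 of 74 did with the first-listed spot alone.

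The limma count of 1 was 165 with the P-factor arrays alone, 2 with a trend in the variance and 0 with the P-factor arrays read as log2. Leaving out 1 array gave 0 to 166 genes: 0 without the P-factor 4 h array and 0 without the 6 h array, 166 without M-factor 4 h and 165 without M-factor 6 h. The time point as replicate block gave 13 genes, 6 higher and 7 lower at 2 h. The 4 h minus 6 h deviations of the courses correlated across genes with r = 0.14, and the labels share only a time point. chr4 kept an adjusted p of 0.0294 by limma with runs centred, and had 0.228 and 0.327 without the 4 h and the 6 h array. With the P-factor arrays alone, and without M-factor 4 h or 6 h, the fit left 1 residual degree of freedom and gave every gene the same spread. What else changed the counts was not tested. With 1 array, 1664 genes on 1 spot and no intensities, small ratios cannot be told apart from spot error.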

Other observations

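Of 1998 spots without a single gene symbol, 1369 had a value at 2 h, and 1035 of these shared their value with at least 2 others. The largest set with 1 value held 123 spots. No named spot shared a value in this way (0 of 9522). Pairs of spots without a single gene symbol with both at least 2-fold down numbered 214. How many of these pairs shared a value was not counted, so 214 is not a count of separate features.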
